A study of Mus with 8 samples.

Results

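Stellate cell and extracellular matrix genes were compared between LKB1 KO and Ctrl livers of mice, on expression arrays of whole liver tissue taken 48 h after partial hepatectomy. Partial hepatectomy takes out some lobes of the organ, and the lobes left in place regenerate. The set holds stellate cell markers, collagens, other matrix proteins, remodelling enzymes and HtrA proteases. Of 38 genes listed, the 37 with a row under their symbol were used, out of 23185 named genes on the arrays, and Fbn1 is not analysed here. The tissue came from livers labelled LKB1 KO (4 arrays, LKB1 KO 1 to LKB1 KO 4) and from livers labelled Ctrl (4 arrays, Ctrl 1 to Ctrl 4), all at the same time after surgery. The genotype labels say no more than this. The sources used here do not give the strain, sex or age of the mice, the promoter behind any recombinase, or which cells lost LKB1. Values are log2 expression, 1 value per gene and array, and a difference is the LKB1 KO mean minus the Ctrl mean in log2 units.

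Hepatic stellate cells lie between the hepatocytes and the sinusoidal endothelium, where they store vitamin A as retinyl esters and, after injury, can turn into contractile myofibroblasts that lay down fibrillar collagen. The matrix they share with portal fibroblasts, endothelial cells and hepatocytes is built from collagens, proteoglycans and elastic fibres, crosslinked by lysyl oxidases, and cut back by metalloproteinases that the TIMP proteins inhibit. Transforming growth factor beta and platelet-derived growth factor are the best known signals that activate the cells, and HtrA1 is a secreted serine protease that cleaves matrix proteins and can dampen signalling of the transforming growth factor beta family.

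The defining markers of the set were detected, which does not show which cells their RNA came from. Dcn, Lrat and Col1a1 lay on all 8 arrays above a background gauge of 3.73 log2 units, the 95th percentile of the mean levels of 1350 olfactory and vomeronasal receptor genes, which a liver is not expected to transcribe. In all, 27 of the 37 members were above the gauge on every array, as were 44.8% of all named genes. Col5a2 and Mmp2 were below it on every array, and 8 lay on both sides (Pdgfra, Col6a3, Postn, Eln, Lox, Loxl1, Timp1 and Htra1). Stk11, which encodes LKB1, was lower in every LKB1 KO array, at 3.97 to 4.84 log2 units in LKB1 KO and 6.46 to 6.76 in Ctrl (limma adjusted p = 0.000453). Each array correlated with its own group at a mean r from 0.974 (LKB1 KO 2) to 0.983 (LKB1 KO 3) over all named genes, with 0.976 for Ctrl 4. On Ctrl 4, 29 genes stood more than 2 log2 units above the next highest array, against 0 to 9 on each other array, and these included many genes of skeletal muscle. Values without Ctrl 4, without LKB1 KO 2 or without both are given where they moved a member most.

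Among the 37 members, Htra1 rose and was the only one past the threshold (limma, Benjamini-Hochberg adjusted p under 0.05 over all 23185 genes). That is 1 member of 37, or 2.70%, where 1.98% of all genes were called in either direction. The count was 1 higher, against 0.487% of all genes, and 0 lower, against 1.49% of all genes. Below that threshold the members leaned to lower means. The LKB1 KO mean was lower in 24 of 37 (64.9%, against 47.1% of all genes), and the median difference was -0.11 log2 units, against 0.016 over all genes. In 8 members, or 21.6%, every LKB1 KO array lay below every Ctrl array, where 5.5% of all genes did so, and in 1 member, Htra1, every LKB1 KO array lay above, where 3.34% of all genes did so. The share lying below was larger in lists of endothelial (50%), macrophage (41.7%) and hepatocyte markers (41.7%), so it is not particular to the members. At an unadjusted p under 0.05, 9 members were lower and 1 higher, against 7.63% and 5.8% of all genes. The members were chosen with earlier results of these arrays known, so these shares describe the set and are not a test of it. In whole liver, fewer cells of a type and less RNA per cell cannot be told apart.

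Htra1 (Entrez Gene 56213) had log2 values of 6.74, 6.95, 7.11 and 6.47 in LKB1 KO 1 to 4, against 3.74, 3.56, 4.16 and 4.09 in Ctrl 1 to 4. The 2 groups were separated by 2.31 log2 units between the lowest LKB1 KO array and the highest Ctrl array, and no single array made the gap. Means were 6.82 ± 0.28 in LKB1 KO and 3.89 ± 0.29 in Ctrl (SD, n = 4 each), a difference of 2.93 (SE 0.18, 95% confidence interval 2.52 to 3.33, limma adjusted p = 6.93e-05), or a 7.61-fold higher level. With 1 array left out at a time the difference stayed between 2.82 and 3.04, and it was 2.95 (adjusted p = 0.00240) without LKB1 KO 2 and Ctrl 4 together. Ctrl 2 was below the background gauge and the other 3 Ctrl arrays were less than 0.5 units above it, a range in which array values compress differences.

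Htra3, which encodes a secreted protease of the same family, did not pass. It stood at 4.08, 4.07, 4.17 and 4.11 log2 units in LKB1 KO 1 to 4, against 3.98, 3.95, 4.16 and 4.38 in Ctrl 1 to 4. The groups overlapped, and the difference was -0.0088 (95% confidence interval -0.29 to 0.28, limma adjusted p = 0.988). Tgfb1, the gene of the transforming growth factor that HtrA proteases are known to restrain, had 5.44, 5.60, 5.60 and 5.59 log2 units in LKB1 KO 1 to 4, against 5.50, 5.63, 5.36 and 5.49 in Ctrl 1 to 4. Its difference was 0.061 (95% confidence interval -0.20 to 0.32, adjusted p = 0.878), and its groups overlapped.

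**Figure D1:**
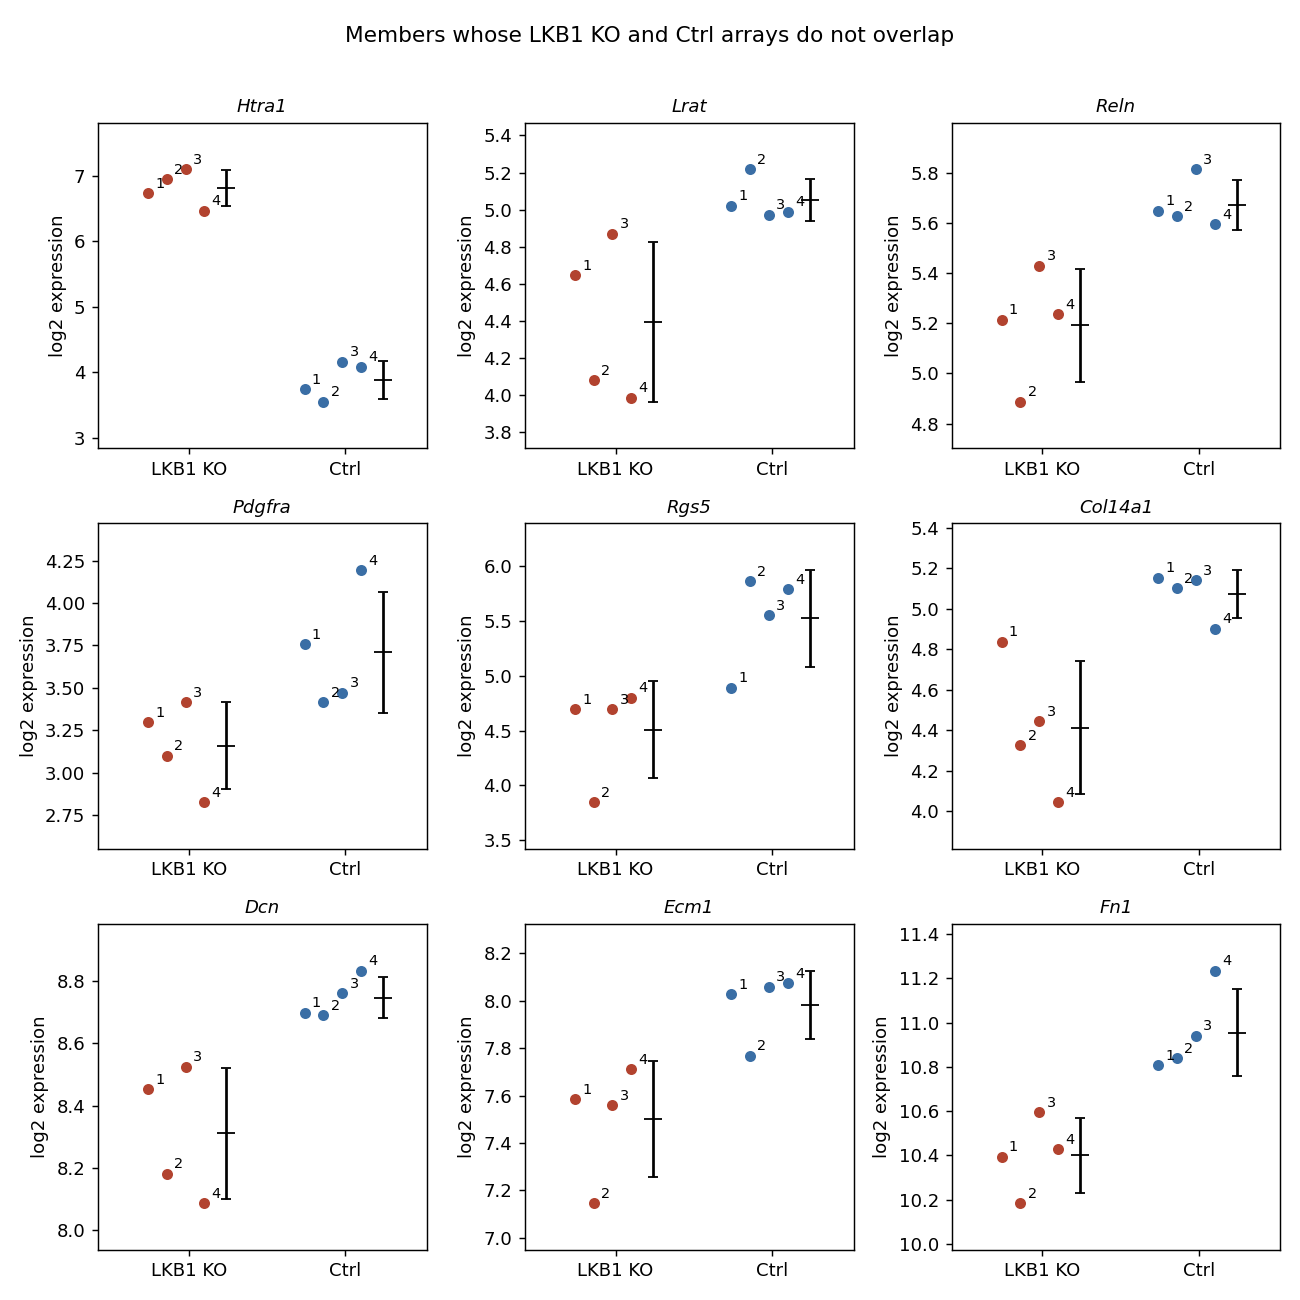
Log2 expression of the 9 members whose arrays do not overlap between the groups, 1 panel a gene, with LKB1 KO arrays in red and Ctrl arrays in blue, the array number beside each point, and the mean with its SD (n = 4) in black. Htra1 is the only one with the LKB1 KO arrays on top, at 6.47 to 7.11 against 3.56 to 4.16 in Ctrl, and the lowest value of each of the other 8 genes is on LKB1 KO 2 or LKB1 KO 4.

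Among the 8 stellate and mural cell markers, 4 (Lrat, Reln, Rgs5 and Pdgfra) had every LKB1 KO array below every Ctrl array, against 5.5% of all genes. In limma's test 0 passed the threshold over all genes, and those 4 had an unadjusted p under 0.05, against 7.63% of all genes. Lrat encodes the acyltransferase that makes retinyl esters and is the usual marker of vitamin A storing stellate cells. Its log2 values were 4.65, 4.08, 4.87 and 3.99 in LKB1 KO 1 to 4, against 5.02, 5.22, 4.97 and 4.99 in Ctrl 1 to 4. The Ctrl arrays were tight, while LKB1 KO 2 and LKB1 KO 4 lay well under the other arrays of their group and LKB1 KO 3 was only 0.10 units below the lowest Ctrl array. The difference was -0.65 (SE 0.20, 95% confidence interval -1.09 to -0.22, limma adjusted p = 0.150).

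Reln, which encodes the secreted glycoprotein reelin and in liver marks stellate cells, had 5.21, 4.89, 5.43 and 5.24 log2 units in LKB1 KO 1 to 4, against 5.65, 5.63, 5.81 and 5.59 in Ctrl 1 to 4. All 4 LKB1 KO arrays were lower, LKB1 KO 2 the most, for a difference of -0.48 (SE 0.14, adjusted p = 0.131). Rgs5, a regulator of G protein signalling that marks pericytes and stellate cells, had 4.69, 3.84, 4.70 and 4.80 in LKB1 KO 1 to 4, against 4.89, 5.86, 5.55 and 5.79 in Ctrl 1 to 4. Here LKB1 KO 2 was far below its group and Ctrl 1 far below the other Ctrl arrays, only 0.092 units above the highest LKB1 KO array. Its mean was 2.02-fold lower in LKB1 KO, at -1.02 log2 units (SE 0.26, 95% confidence interval -1.59 to -0.44, limma adjusted p = 0.0822). The gene passed without Ctrl 1 (-1.23, adjusted p = 0.0430) and with array weights (-0.91, adjusted p = 0.0470), and its difference was -0.71 (adjusted p = 0.196) without LKB1 KO 2 and Ctrl 4.

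Of the receptors for platelet-derived growth factor, Pdgfra had separated groups and Pdgfrb did not. Pdgfra had 3.30, 3.10, 3.41 and 2.83 log2 units in LKB1 KO 1 to 4, against 3.76, 3.42, 3.47 and 4.19 in Ctrl 1 to 4, a difference of -0.55 (adjusted p = 0.229). All 4 LKB1 KO arrays and 2 of the Ctrl arrays were below the background gauge, and LKB1 KO 3 and Ctrl 2 were only 0.0018 units apart, so the separation of its groups is marginal. Pdgfrb, the receptor that drives stellate cell proliferation, had 4.54, 4.20, 5.04 and 4.17 in LKB1 KO 1 to 4, against 5.12, 4.09, 4.57 and 4.99 in Ctrl 1 to 4. The groups overlapped widely, with a difference of -0.20 (95% confidence interval -0.77 to 0.36).

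Of the contractile genes, Acta2 and Tagln had higher means in LKB1 KO, and none passed. Acta2, the smooth muscle actin of myofibroblasts and vessel walls, had 7.82, 6.23, 6.35 and 6.56 log2 units in LKB1 KO 1 to 4, against 5.90, 5.89, 5.90 and 6.99 in Ctrl 1 to 4. Every LKB1 KO array was above Ctrl 1, Ctrl 2 and Ctrl 3, and Ctrl 4 was above all but LKB1 KO 1. The difference was 0.57 (95% confidence interval -0.22 to 1.36, adjusted p = 0.558), 0.84 (0.099 to 1.59, adjusted p = 0.310) without Ctrl 4, and 0.21 (adjusted p = 0.824) without LKB1 KO 1. Tagln, which encodes the actin-binding protein transgelin, had 6.14, 5.42, 5.52 and 5.53 in LKB1 KO 1 to 4, against 4.95, 4.78, 5.52 and 5.77 in Ctrl 1 to 4. The groups overlapped, at a difference of 0.40 (adjusted p = 0.531), 0.57 (adjusted p = 0.313) without Ctrl 4, and 0.24 (adjusted p = 0.763) without LKB1 KO 1. Des, the gene of the intermediate filament desmin found in stellate and muscle cells, had 4.94, 4.37, 4.73 and 4.56 in LKB1 KO 1 to 4, against 4.52, 4.38, 4.23 and 6.60 in Ctrl 1 to 4. Its sign depended on Ctrl 4, at -0.28 (adjusted p = 0.848) with that array and 0.27 (adjusted p = 0.560) without it.

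**Figure D2:**
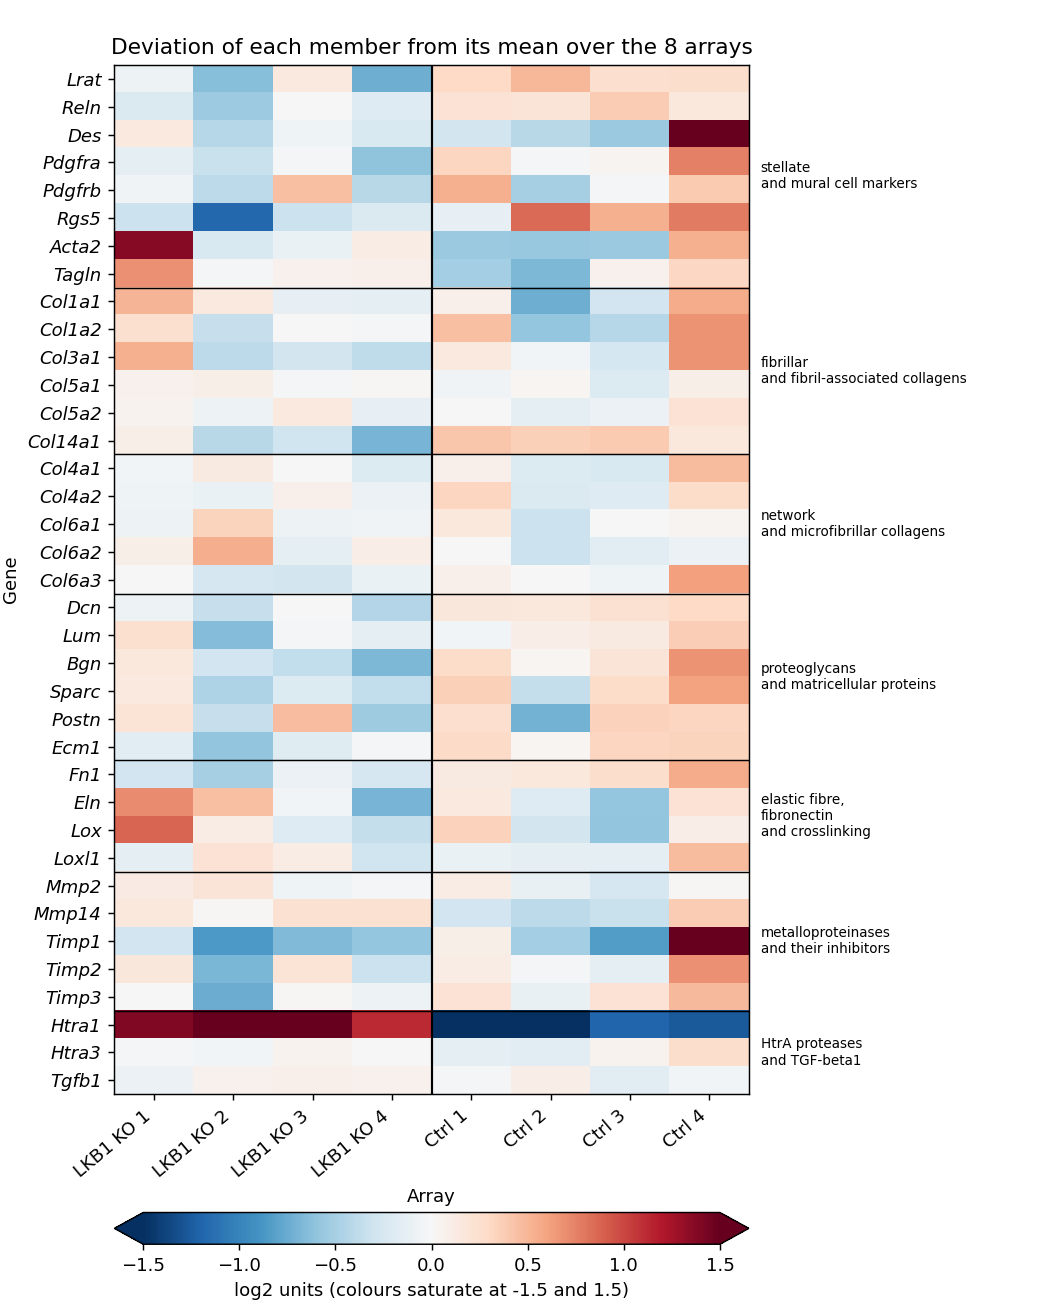
Each row is a member, grouped by role, and each column an array, with the 4 LKB1 KO arrays left of the line and the 4 Ctrl arrays right of it; colour gives the deviation from the gene's mean over the 8 arrays in log2 units, red above and blue below, saturating at 1.5 units. The Htra1 row is split by genotype, and the Ctrl 4 column is red in most rows, with Des and Timp1 the deepest.

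Of the 6 fibrillar and fibril-associated collagens, 0 passed the threshold in limma's test. Col14a1 alone was lower at an unadjusted p under 0.05, against 7.63% of all genes. Of the 6, 3 had higher and 3 lower means in LKB1 KO, and the median difference was -0.029. Col14a1 was the one with separated groups. It encodes collagen XIV, which binds to the surface of collagen fibrils, and had 4.84, 4.33, 4.44 and 4.04 log2 units in LKB1 KO 1 to 4, against 5.15, 5.10, 5.14 and 4.90 in Ctrl 1 to 4. The lowest was LKB1 KO 4, LKB1 KO 1 was nearest to Ctrl, and the gap between the groups was 0.064. The difference was -0.66 (SE 0.17, 95% confidence interval -1.03 to -0.29, adjusted p = 0.0821), and it passed without LKB1 KO 1 (-0.80, adjusted p = 0.0426).

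The collagens of the fibril itself showed no such separation. Col1a1, the main chain of collagen I, had 5.40, 5.03, 4.76 and 4.74 log2 units in LKB1 KO 1 to 4, against 4.96, 4.16, 4.60 and 5.45 in Ctrl 1 to 4. The Ctrl range enclosed all LKB1 KO values, at a difference of 0.19 (95% confidence interval -0.38 to 0.76, adjusted p = 0.812), which stood at 0.41 (adjusted p = 0.507) without Ctrl 4 and -0.018 without Ctrl 2. Its partner chain Col1a2 had 5.21, 4.63, 4.98 and 4.95 in LKB1 KO 1 to 4, against 5.43, 4.40, 4.54 and 5.65 in Ctrl 1 to 4, a difference of -0.059 (95% confidence interval -0.66 to 0.54). In both chains Ctrl 2 and Ctrl 3 were low and Ctrl 4 high, and the SD was 0.31 in LKB1 KO and 0.55 in Ctrl for Col1a1, and 0.24 in LKB1 KO and 0.63 in Ctrl for Col1a2. Col3a1, the chain of collagen III, ran from 4.91 to 5.83 in LKB1 KO and from 5.04 to 5.97 in Ctrl, with a difference of -0.26 (adjusted p = 0.721). Col5a1 and Col5a2, chains of the collagen V that nucleates fibrils, differed by 0.073 (95% confidence interval -0.19 to 0.33) and 0.0012 (-0.28 to 0.29).

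Network and microfibrillar collagens gave differences between -0.31 and 0.29, with a median of -0.055, and 0 of 5 passed in limma's test. At an unadjusted p under 0.05 there were 0, against 7.63% of all genes lower and 5.8% higher. Col4a1 and Col4a2, which form the sheet of basement membranes, differed by -0.055 (95% confidence interval -0.43 to 0.32) and -0.092 (-0.43 to 0.25). The collagen VI genes, whose chains assemble into beaded microfibrils, were not alike in sign. Col6a1 stood at 0.068, Col6a2 at 0.29 and Col6a3 at -0.31, with adjusted p from 0.475 to 0.896. Col6a3 ran from 3.54 to 3.82 log2 units in LKB1 KO, and from 3.74 to 4.43 in Ctrl, where Ctrl 4 was well above the rest, and its difference was -0.15 (adjusted p = 0.698) without that array.

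All 6 proteoglycan and matricellular genes had lower means in LKB1 KO, against 47.1% of all genes. Their differences lay between -0.59 and -0.11, with a median of -0.44. In limma's test 0 passed the threshold, and 3 (Bgn, Dcn and Ecm1) were lower at an unadjusted p under 0.05, against 7.63% of all genes. Dcn encodes decorin, a small proteoglycan that binds collagen fibrils and is abundant in stellate cells and fibroblasts. Its log2 values were 8.45, 8.18, 8.53 and 8.09 in LKB1 KO 1 to 4, against 8.70, 8.69, 8.76 and 8.83 in Ctrl 1 to 4. As for Lrat, LKB1 KO 2 and LKB1 KO 4 were the lowest and the Ctrl arrays lay close together (SD 0.21 in LKB1 KO and 0.066 in Ctrl). The difference of -0.43 (SE 0.13, 95% confidence interval -0.73 to -0.14, limma adjusted p = 0.159) was -0.41 without Ctrl 4 and -0.36 without Ctrl 4 and LKB1 KO 2.

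Ecm1, a secreted glycoprotein gene that hepatocytes also transcribe and whose product keeps latent transforming growth factor beta inactive, had 7.58, 7.15, 7.56 and 7.71 in LKB1 KO 1 to 4, against 8.03, 7.77, 8.06 and 8.07 in Ctrl 1 to 4. LKB1 KO 2 and Ctrl 2 were the low arrays of their groups, and the groups were 0.058 units apart, at a difference of -0.48 (SE 0.15, adjusted p = 0.163). Bgn, the gene of the proteoglycan biglycan, had 8.49, 8.04, 7.96 and 7.66 in LKB1 KO 1 to 4, against 8.61, 8.37, 8.52 and 9.0 in Ctrl 1 to 4. One array, LKB1 KO 1, overlapped Ctrl, and the difference was -0.59 (SE 0.20, adjusted p = 0.195) with all arrays and -0.46 (adjusted p = 0.347) without Ctrl 4. Sparc, a collagen-binding matricellular protein gene, differed by -0.44 (adjusted p = 0.410), Lum, which encodes the proteoglycan lumican, by -0.28 (adjusted p = 0.585), and Postn, the gene of periostin, by -0.11 (adjusted p = 0.912). In these last 3 genes the groups overlapped. Lum was lowest on LKB1 KO 2, and its difference was -0.11 (adjusted p = 0.817) without that array and -0.036 (adjusted p = 0.948) without Ctrl 4 as well. Without both arrays Sparc stood at -0.23 and Postn at 0.081, so the common sign of the 6 genes did not hold there.

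Fn1, which encodes the fibronectin of both plasma and matrix and is transcribed by hepatocytes as well as by stellate cells, had 10.39, 10.18, 10.59 and 10.43 log2 units in LKB1 KO 1 to 4, against 10.81, 10.84, 10.94 and 11.23 in Ctrl 1 to 4. The groups were 0.21 units apart, the widest gap among the 8 lower members, and Ctrl 4 was the highest array. The difference was -0.56 (SE 0.14, 95% confidence interval -0.87 to -0.24, limma adjusted p = 0.0857), or a 1.47-fold lower level. It passed with a trended and robust prior variance (adjusted p = 0.0265), and was -0.46 (adjusted p = 0.159) without Ctrl 4. Eln, the gene of elastin, and Lox and Loxl1, which encode enzymes that crosslink elastin and collagen, differed by 0.21, 0.21 and -0.058, with adjusted p from 0.805 to 0.927. Eln and Lox were highest on LKB1 KO 1, at 4.69 and 4.09.

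Of 5 genes of metalloproteinases and their inhibitors, 0 passed the threshold in limma's test and 0 had an unadjusted p under 0.05 with all arrays. Mmp14 encodes the membrane-bound protease that activates MMP2, and had 7.54, 7.40, 7.61 and 7.61 log2 units in LKB1 KO 1 to 4, against 7.09, 6.99, 7.05 and 7.76 in Ctrl 1 to 4. Every LKB1 KO array was higher than Ctrl 1, Ctrl 2 and Ctrl 3 and lower than Ctrl 4. The difference was 0.32 (95% confidence interval -0.074 to 0.70, adjusted p = 0.495) with all arrays. Without Ctrl 4 it was 0.49 (95% confidence interval 0.21 to 0.78, adjusted p = 0.0931), and without Ctrl 4 and LKB1 KO 2 it was 0.54 (adjusted p = 0.0639). Mmp2 stayed below the background gauge on all arrays, at 3.12 to 3.37 in LKB1 KO and 2.92 to 3.30 in Ctrl.

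Timp1, an inhibitor of metalloproteinases that is induced in acute injury and fibrosis, had 4.07, 3.50, 3.69 and 3.78 log2 units in LKB1 KO 1 to 4, against 4.44, 3.84, 3.52 and 8.01 in Ctrl 1 to 4. Ctrl 4 stood 3.57 units above every other array, and the remaining 7 values lay within 1 unit of each other. The difference of -1.19 (95% confidence interval -2.95 to 0.56, adjusted p = 0.584), the lowest of any member, came to -0.18 (adjusted p = 0.812) without that array. Timp2 differed by -0.31 (adjusted p = 0.633) and Timp3, an inhibitor bound to the matrix, by -0.41 (95% confidence interval -0.84 to 0.021, adjusted p = 0.403). Timp3 had its low value on LKB1 KO 2 (5.56, against 6.23 to 6.32 on the other LKB1 KO arrays and 6.20 to 6.80 in Ctrl). Its difference was -0.23 (adjusted p = 0.592) without that array and -0.13 (adjusted p = 0.747) without Ctrl 4 as well. Timp2 stood at -0.14 without either LKB1 KO 2 or Ctrl 4 and at 0.038 without both.

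**Figure D3:**
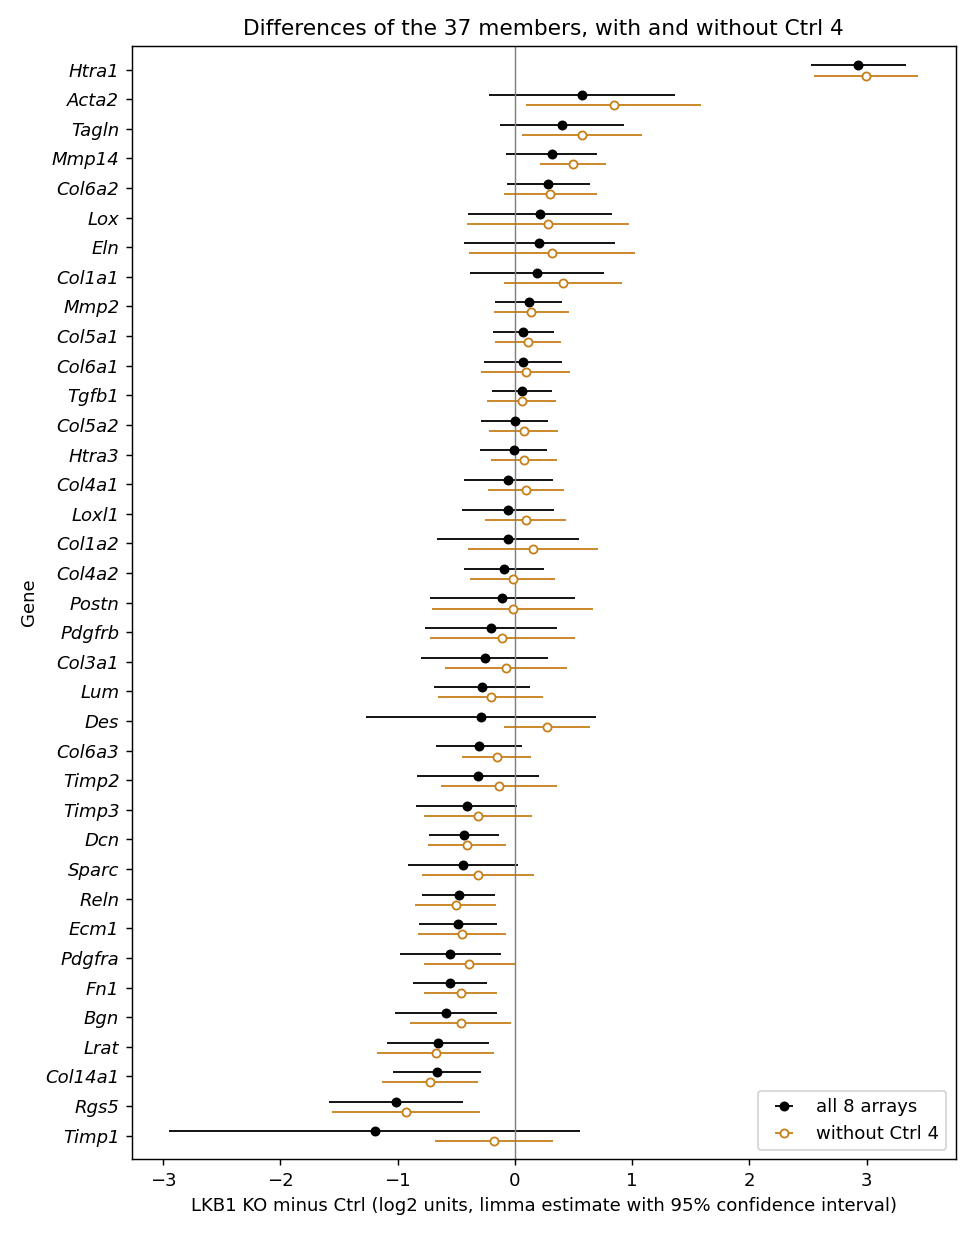
LKB1 KO minus Ctrl for the 37 members in log2 units, with 95% confidence intervals from limma, using all 8 arrays (filled, black) or leaving out Ctrl 4 (open, orange). Htra1 lies apart at 2.93; without Ctrl 4, Timp1 stands at -0.18 in place of -1.19, Des is above 0, and the interval of Mmp14 is narrower.

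The lower median of the set moved with the array left out, and Ctrl 4 was the array highest in most members. That array was the highest of the 8 arrays in 21 of 37 members (56.8%), while it was the highest in 13.9% of all genes, and it was the lowest in 0 members. Its median deviation from the members' means was 0.36 log2 units, against -0.14 to 0.12 on the other Ctrl arrays and -0.29 to 0.068 on the LKB1 KO arrays. Without Ctrl 4 the median difference of the members was -0.016, with 19 of 37 means lower in LKB1 KO, and without both Ctrl 4 and LKB1 KO 2 it was 0.011, with 16 of 37 lower. Without Ctrl 2 instead, which was the lowest array in 13 members, the median was -0.29. Each of these medians differed from that with all arrays by less than the SD of the arrays' median deviations within groups (0.20).

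Groups separated on 8 arrays stay separated when an array is dropped. Omission of Ctrl 4 can add a higher member only where Ctrl 4 was the highest Ctrl array. It can add a lower member only where Ctrl 4 was the lowest Ctrl array. Ctrl 4 was the highest array in most members, so the counts below follow largely from which array was dropped and are not a test. Without Ctrl 4 there were 0 new separations on the lower side, where 8 members and 8.1% of all genes were separated. On the higher side Htra1 was joined by Acta2 and Mmp14, where 5.39% of all genes were separated. At an unadjusted p under 0.05, 9 members were then lower and 4 higher (Htra1, Mmp14, Acta2 and Tagln), against 7.64% and 5.23% of all genes, and Htra1 was again the only one past the adjusted threshold. Without both Ctrl 4 and LKB1 KO 2, 7 were lower and 5 higher, against 7.31% and 6.8% of all genes. The 7 were Lrat, Reln, Rgs5, Col14a1, Dcn, Ecm1 and Fn1, and the 5 were Htra1, Mmp14, Acta2, Tagln and Des. LKB1 KO 2 and LKB1 KO 4 bore the lowest values of the 8 lower genes, 4 genes each. LKB1 KO 2 was also the array with the highest median (3.96 log2 units, against 3.75 to 3.86 on the others) and the narrowest spread over all named genes, and it was the lowest array in 27.0% of members and 19.1% of all genes.

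Most listed genes of skeletal muscle and some of acute injury were also high on Ctrl 4. Of 15 skeletal muscle genes, listed after this array had been examined, 13 were highest on Ctrl 4 and 10 stood more than 2 log2 units above the next array, and their summed level was 7.31 to 7.78 in LKB1 KO and 7.35 to 11.49 in Ctrl. Acta1, the skeletal muscle actin, was at 9.77 on Ctrl 4 and between 3.43 and 3.75 on the other 7 arrays. Desmin is also a muscle protein, and Acta1 and Acta2 transcripts are so similar that probes may not keep them fully apart. Of 10 acute injury and chemokine genes, chosen in the same way, 6 were highest on Ctrl 4 and 3 stood more than 2 log2 units above the next array. Those with the widest gaps were the neutrophil chemokine Cxcl2 (8.78, against 2.59 to 4.37 on the other arrays) and A2m (8.63, against 3.23 to 4.03). Cxcl1, Ccl2, Il6 and Hmox1 were higher on another array than on Ctrl 4. The summed level of the 10 genes was 11.39 to 11.97 in LKB1 KO and 11.89 to 12.73 in Ctrl. Acta2 itself was highest on LKB1 KO 1 (7.82), where Acta1 was at 3.75. The part of muscle tissue, injury or similar probes in the values of Des, Acta2, Timp1 and Mmp14 on Ctrl 4 was not tested.

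**Figure D4:**
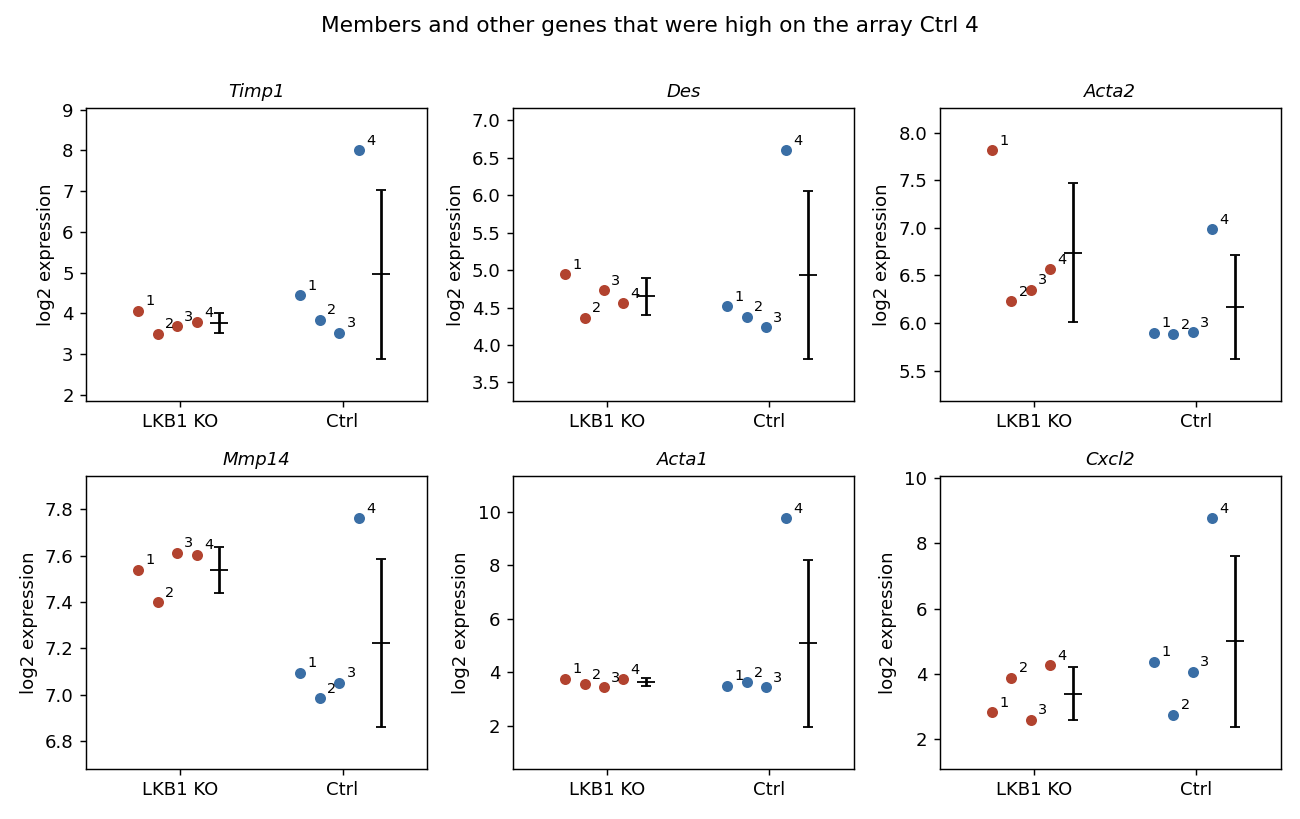
Log2 expression of 4 members (Timp1, Des, Acta2, Mmp14), the skeletal muscle actin Acta1 and the chemokine Cxcl2, with LKB1 KO in red, Ctrl in blue, array numbers beside the points and the mean with its SD (n = 4) in black. In each panel Ctrl 4 is above the other Ctrl arrays, and Timp1 reaches 8.01 there against 3.50 to 4.44 on the other 7 arrays.

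Further stellate cell markers outside the set were lower more often than higher. Of 23 measured, Steap4, a metalloreductase gene, fell and 0 rose (limma), against 1.49% and 0.487% of all genes. At an unadjusted p under 0.05, 6 were lower (26.1%, against 7.63% of all genes) and 0 higher. Means were lower in 17 (73.9%, against 47.1% of all genes), and the median was -0.12. Steap4 had 9.33, 9.30, 9.40 and 8.67 log2 units in LKB1 KO 1 to 4, against 10.10, 10.13, 10.06 and 10.65 in Ctrl 1 to 4 (difference -1.06, adjusted p = 0.0224), and its call ended without LKB1 KO 1, Ctrl 1 or Ctrl 2 (adjusted p up to 0.0873 over all settings). Cygb, the gene of cytoglobin and a marker of quiescent stellate cells, stood at 4.75, 4.53, 4.55 and 4.86 in LKB1 KO 1 to 4, against 5.42, 5.04, 5.33 and 5.87 in Ctrl 1 to 4 (-0.74, adjusted p = 0.0638). Steap4 and Cygb were the 2 of the 23 markers in which every LKB1 KO array lay below every Ctrl array (8.70%, against 5.5% of all genes). The collectin gene Colec10 stood at -0.93 (adjusted p = 0.0693), and its groups overlapped.

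Growth factor genes that act on stellate cells held no call. Among 23 genes of the transforming growth factor beta pathway, 12 had higher and 11 lower means, with a median of 0.053. At an unadjusted p under 0.05 there were 1 higher and 3 lower (limma), against 5.8% and 7.63% of all genes. Differences in this list ran from -0.62 to 0.71. The 1 higher gene was the receptor gene Tgfbr2, and the 3 lower ones are not shown by array. Tgfbr2 had 5.73, 5.15, 5.18 and 5.85 log2 units in LKB1 KO 1 to 4, against 4.87, 4.74, 4.65 and 4.82 in Ctrl 1 to 4 (0.71, adjusted p = 0.0769). The ligand genes of the platelet-derived growth factor family stood apart in sign. Pdgfa had 5.03, 5.09, 5.01 and 5.49 in LKB1 KO 1 to 4, against 4.21, 4.76, 4.68 and 4.28 in Ctrl 1 to 4 (0.67, adjusted p = 0.0813), while Pdgfc had 3.93, 3.46, 4.28 and 4.06 in LKB1 KO 1 to 4, against 5.33, 5.34, 4.45 and 4.74 in Ctrl 1 to 4 (-1.03, adjusted p = 0.0543). In Tgfbr2, Pdgfa and Pdgfc the groups did not overlap, and the 4 measured ligand genes had a median of 0.075. Of all genes, 3.34% had every LKB1 KO array above every Ctrl array, and 5.5% had every one below. In the list of 23 pathway genes this was so in 1 higher and 2 lower (8.70%).

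Other matrix genes gave few calls. Of 33 other collagens, 2 fell and 0 rose, against 1.49% and 0.487% of all genes, with a median of 0.076. Both encode collagens that can release antiangiogenic fragments from the basement membrane zone. Col18a1, the gene of collagen XVIII and endostatin, which hepatocytes transcribe, had 6.49, 6.20, 6.54 and 6.86 log2 units in LKB1 KO 1 to 4, against 7.37, 7.31, 7.08 and 7.18 in Ctrl 1 to 4 (-0.71, adjusted p = 0.0446). Col15a1 was at -0.62 (adjusted p = 0.0447), with all LKB1 KO arrays below the background gauge. The call of Col18a1 ended without any single array but LKB1 KO 4 (adjusted p up to 0.130), and that of Col15a1 without any single array (up to 0.134).

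In 22 integrins and other matrix receptors, the heparan sulphate proteoglycan gene Sdc4 fell and 0 rose. Of all genes, 1.49% fell and 0.487% rose, and the median of the list was -0.13. Sdc4 had 8.57, 8.38, 8.60 and 8.44 log2 units in LKB1 KO 1 to 4, against 9.73, 9.07, 9.10 and 9.11 in Ctrl 1 to 4 (-0.75, adjusted p = 0.0454), and its call ended without any single array (up to 0.127). No call was made among 25 genes of collagen folding, modification and trimming (median -0.043), 14 laminin and basement membrane genes (-0.038), 36 other matrix glycoproteins and proteoglycans (0.0060) and 31 other matrix proteases and inhibitors (-0.032). Over these 4 lists 1, 0, 7 and 3 genes had an unadjusted p under 0.05, in either direction. Of all genes, 7.63% were lower and 5.8% higher at that level. The lowest p in them were those of Prelp, a leucine-rich proteoglycan gene (-0.71, adjusted p = 0.0609), and of the metalloproteinase gene Adamts1 (0.60, adjusted p = 0.0638).

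Endothelial and macrophage markers also had lower means in LKB1 KO. All 14 endothelial markers had lower means, against 47.1% of all genes, with a median of -0.50. Clec4g, Gpr182, Fcgr2b and Kdr fell, against 1.49% of all genes. At an unadjusted p under 0.05 (limma), 9 were lower (64.3%, against 7.63% of all genes). In 7 (50%, against 5.5% of all genes) every LKB1 KO array lay below every Ctrl array. The summed level of all 14 ran from 10.12 to 10.31 log2 units in LKB1 KO and from 10.57 to 10.83 in Ctrl. All 12 macrophage markers had lower means (median -0.44), and Csf1r fell. At an unadjusted p under 0.05, 7 were lower (58.3%), and in 5 (41.7%) every LKB1 KO array lay below every Ctrl array. The summed level was 9.73 to 10.19 in LKB1 KO and 10.12 to 10.91 in Ctrl. Of 12 hepatocyte markers, 9 had lower means (75%), the median was -0.14, and limma called 0 and gave 3 lower ones (25%) an unadjusted p under 0.05. In 5 (41.7%) every LKB1 KO array lay below every Ctrl array, and in 1 every LKB1 KO array lay above. Their summed level was 15.23 to 15.33 in LKB1 KO and 15.38 to 15.45 in Ctrl. Of these single calls, that of Clec4g held with each array left out. The calls of Fcgr2b and Kdr ended without any single array but Ctrl 4, and that of Csf1r without any single array but Ctrl 2. The call of Gpr182 ended without LKB1 KO 1, LKB1 KO 3 or Ctrl 2. Adjusted p reached up to 0.130, and all of these calls but that of Clec4g also ended with the replicate number as a block. The part of these cells in the lower values of the members was not tested.

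Markers of other mesenchymal cells had medians of opposite sign. In 14 portal fibroblast and mesothelial markers (median -0.10; summed level 7.90 to 8.35 in LKB1 KO and 8.33 to 8.72 in Ctrl), Gas6 fell and 0 rose. Of all genes, 1.49% fell and 0.487% rose. Gas6 encodes a ligand of the TAM receptor kinases that several liver cell types make, and had 5.99, 5.60, 5.41 and 5.65 log2 units in LKB1 KO 1 to 4, against 6.75, 7.24, 6.93 and 7.38 in Ctrl 1 to 4 (-1.41, adjusted p = 0.00324, and at most 0.0185 in every alternative run). In 14 smooth muscle and pericyte markers (median 0.13; summed level 8.67 to 9.36 in LKB1 KO and 8.66 to 9.37 in Ctrl), the myosin light chain kinase gene Mylk fell (-0.76, adjusted p = 0.0169) and 0 rose, although 11 of the 14 had a higher mean. A lower mean was found in 21.4% of them, against 47.1% of all genes. At an unadjusted p under 0.05 (limma), 3 were lower and 1 higher, against 7.63% and 5.8% of all genes. In 2 (14.3%, against 5.5% of all genes) every LKB1 KO array lay below every Ctrl array. The call of Mylk ended without LKB1 KO 4 or Ctrl 2 (adjusted p up to 0.0663 over all settings).

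Blood and bile duct cell markers held 1 call. Cholangiocyte (7 genes, median -0.035; summed level 6.36 to 6.84 in LKB1 KO and 6.41 to 7.00 in Ctrl), neutrophil (9 genes, -0.15; 7.86 to 8.40 in LKB1 KO and 8.46 to 10.08 in Ctrl) and lymphocyte markers (10 genes, 0.15; 6.84 to 7.24 in LKB1 KO and 6.68 to 6.95 in Ctrl) had 0 past the threshold in limma's test. At an unadjusted p under 0.05 there were 0, 4 and 0, and of the 4 neutrophil markers 3 were lower and 1 higher. Of all genes, 7.63% were lower and 5.8% higher at that level. Of 7 erythroid and platelet markers (median 0.097; 8.74 to 10.09 in LKB1 KO and 9.51 to 10.05 in Ctrl), the heme synthesis gene Alas2 fell (-1.03, adjusted p = 0.0471), a call that ended without any single array but Ctrl 4 (up to 0.141). Calls to the lower side were made in 1.49% of all genes.

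**Figure D5:**
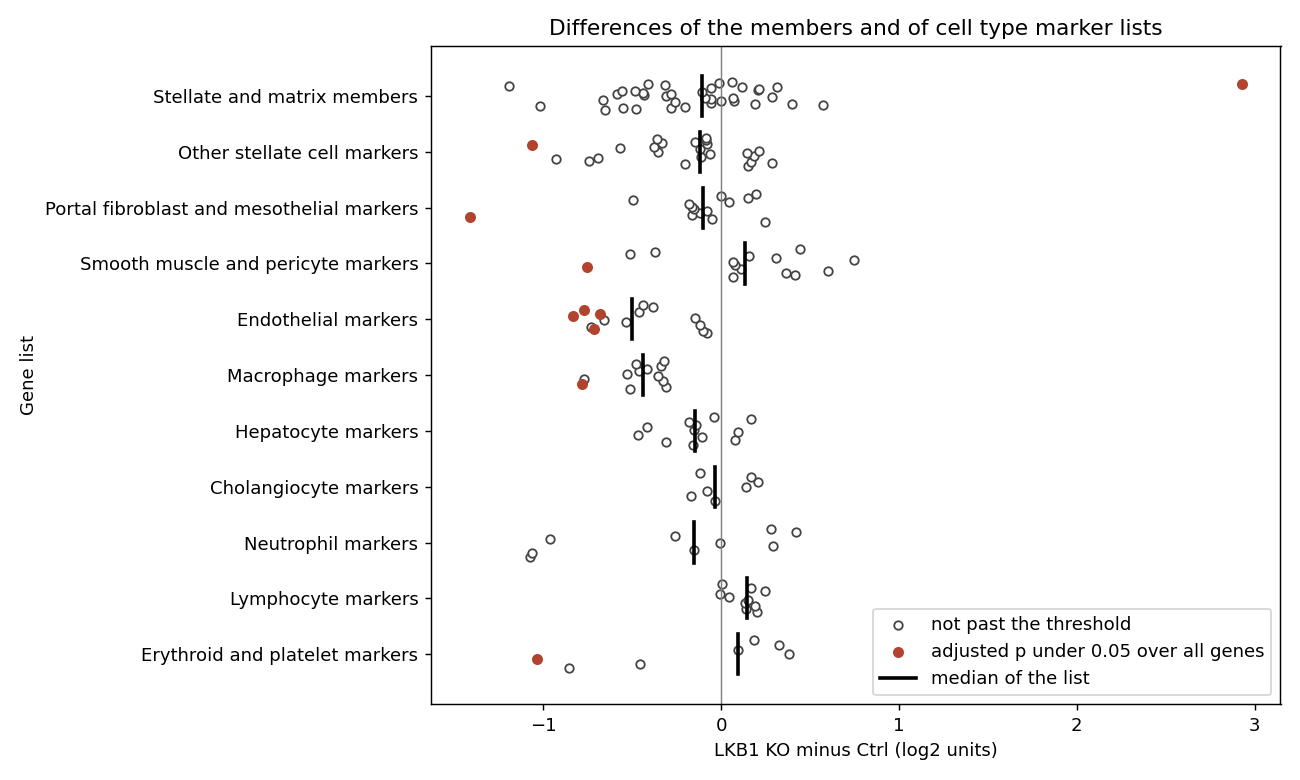
LKB1 KO minus Ctrl in log2 units for each gene of the member set (top row) and of 10 marker lists, with filled points for adjusted p under 0.05 over all genes, open points for the rest and a bar at each list's median. The member set has a median of -0.11, and the endothelial and macrophage lists have medians of -0.50 and -0.44.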

How the data were processed

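Total RNA of whole liver was amplified to sense-strand cDNA, labelled with biotin and put on arrays, per the labels' protocols. The deposited table gives 1 log2 value per row and array, made by the authors with RMA (background correction, normalization between arrays and summary of probes) and Partek, per the submitters' processing notes, without versions. No source used here names the probe positions or the genome build. RMA compresses differences between dim probes. The table has 25206 rows. The platform annotation names 1 gene for 23185 of them, and the other 2021 were left out. All 37 members matched RefSeq by Entrez Gene ID with the same symbol.

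Groups came from the sample titles. A linear model with the group as its term was fitted across the named genes (lmFit and eBayes of limma, version 3.58.1, under R version 4.3.3, two-sided), and p-values were adjusted by Benjamini-Hochberg over all 23185 genes. The fit was tried on simulated data with independent noise for each gene and array. Such noise lacks deviations that many genes share on a single array, so the trial does not cover their effect. Members of each group are not said to be separate animals, so a p-value here reflects only how these samples vary, and that variation may be technical. The number of arrays limits the precision, and 4 arrays against 4 cannot give an exact two-sided permutation p below 0.0286.

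The members and gene lists were chosen with earlier results of these data known. All members are accounted for, with values by array for those past the threshold, those with separated groups, Dcn, Lrat, Col1a1 and those differing by at least 0.8 log2 units, beside others chosen after their values were seen. From the other lists, genes past the threshold are named, and genes named below it were chosen after their values were seen. The summed level of a list is the log2 of the sum of its unlogged values. The 2 lists of muscle and injury genes and the background gauge were chosen after the arrays had been examined. The alternatives were a block for the replicate number, omission of each array in turn, omission of LKB1 KO 2 and Ctrl 4 together, quantile normalization, median centring, removal of the 7729 dimmest genes, a trended and robust prior, and array weights.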

Additional observations from a re-analysis of the deposited data

Results flagged for a closer look

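Each member was examined in each group of 4 arrays for a highest or lowest array whose gap to its neighbour divided by the group's range exceeds Dixon's 95% critical value. This was so in 12 of 74 groups, where chance alone gives about 1 in 20, or 3.7. Ctrl 4 held 4 of them, as the highest Ctrl array of Des (6.60, next 4.52), Acta2 (6.99, next 5.90), Loxl1 (3.97, next 3.40) and Mmp14 (7.76, next 7.09). LKB1 KO 2 held 3, with low values of Rgs5 (3.84, next 4.69) and Timp3 (5.56, next 6.23) and a high value of Col6a1 (4.52, next 4.12). LKB1 KO 1 held 3, with high values of Tagln (6.14, next 5.53) and Col3a1 (5.83, next 5.03) and a low value of Tgfb1 (5.44, next 5.59). Ctrl 2 held 2 low values, of Postn (3.26, next 4.22) and Ecm1 (7.77, next 8.03).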

How the results depend on the processing

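Htra1 kept its direction and its call in each alternative run, with adjusted p from 3.51e-05 to 0.00240. As deposited limma called 0 members lower, with 9 lower at an unadjusted p under 0.05. With a trended and robust prior 1 was (Fn1), with array weights 1 (Rgs5), and with single arrays left out 0 to 1. With the replicate number as a block, 186 genes over all were called lower (345 as deposited). Same-numbered arrays deviated together at r = -0.036, -0.11, 0.18 and -0.022, with 1 of 4 numbers matching its own best. With 4 arrays a group these values cannot show whether the numbers pair the samples, and the labels do not say. Genes called higher were 198 with quantile normalization and 254 with array weights (113 as deposited). With single arrays left out, 164 to 382 genes were called lower and 42 to 144 higher, and the members' median lay between -0.29 and -0.016. Calls that were higher made up 24.7% as deposited, 36.8% with quantile normalization and 35.2% with array weights.

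Members without a call changed sign as follows. Without LKB1 KO 2 and Ctrl 4, Des stood at 0.37, Col1a2 at 0.26, Col3a1 at 0.010, Col4a1 at 0.043, Col4a2 at 0.0028, Col6a1 at -0.0082, Postn at 0.081, Loxl1 at 0.011, Timp2 at 0.038 and Htra3 at 0.090. With array weights Col1a2 stood at 0.13, Postn at 0.037 and Htra3 at 0.027. Col5a2 stood at -0.055 with quantile normalization and -0.035 with median centring. With single arrays left out, the ranges were -0.52 to 0.27 for Des, -0.018 to 0.41 for Col1a1, -0.26 to 0.16 for Col1a2, -0.048 to 0.074 for Col5a2, -0.14 to 0.095 for Col4a1, -0.033 to 0.13 for Col6a1, -0.36 to 0.053 for Postn, -0.043 to 0.37 for Lox, -0.14 to 0.092 for Loxl1 and -0.064 to 0.077 for Htra3. The causes were not tested. Members near the background gauge have compressed differences.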
